A study of Homo sapiens with 8 samples.

Results

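Mitosis genes are described here: 45 genes, chosen by name from a list of mitotic kinases, cyclins, kinesins, kinetochore, condensin and cytokinesis genes. Their measured values had no part in the choice, although earlier results of these data were known. All 45 were present in both deposited tables, which list 58302 genes each. RNA protected by ribosomes (footprints) and total input RNA were sequenced from MOLM-13, a cell line of acute myeloid leukaemia that carries the MLL-AF9 fusion. The cells carried a hairpin against circMYBL2, a circular RNA of the MYBL2 locus (sh-circMYBL2, spelt Sh-cricMY1 in the sample titles), or a control hairpin (Sh-NC). There were 2 libraries in each of 4 groups: sh-circMYBL2 footprints, Sh-NC footprints, sh-circMYBL2 input RNA and Sh-NC input RNA. All cells were of 1 line, and the titles name 1 hairpin against the circle. Whether the libraries within a group stem from separate cultures is not stated, so p-values measure only the spread between these libraries, which may be technical. The level of circMYBL2 itself was not analysed here.

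Between 13501743 and 14600090 reads fell on genes in each input RNA library. Footprint libraries were shallower, with 222809 and 714949 reads under sh-circMYBL2 and 80134 and 300336 reads in Sh-NC libraries 1 and 2. Which replicate each sh-circMYBL2 footprint column holds could not be told from its name, and these libraries are given as a and b. MicroRNA genes took 32.8% and 12.2% of the sh-circMYBL2 footprint reads, against 42.7% and 57.2% of the Sh-NC footprint reads; the part of this in the footprint results below was not tested. Of 12 myeloid markers 11 averaged at least 1 FPKM of input RNA, CD14 being the exception, and none of 9 erythroid or 6 megakaryocyte markers did. The myeloid markers summed to 1008 to 1052 FPKM with sh-circMYBL2 and to 819 to 860 FPKM with Sh-NC. Most of this sum was LYZ, at 754 and 705 FPKM with sh-circMYBL2 and 604 and 557 FPKM with Sh-NC. CD33, MPO and CD14 were lower in both sh-circMYBL2 libraries, SPI1 and MEIS1 overlapped between the hairpins, and the rest were higher. The part of these markers in the results was not tested. Of 6 lymphoid markers 1 (NKG7) and of 8 markers of adherent, epithelial or endothelial cells 1 (PECAM1) reached that level.

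A cell enters mitosis when CDK1, bound to cyclins A and B, is dephosphorylated by CDC25 phosphatases. Condensin then compacts chromosomes, kinesins and kinetochores attach them to the spindle, and a checkpoint holds the anaphase-promoting complex until every chromosome is attached. Transcripts of these genes build up in G2 and M. Many of their promoters hold a cell cycle genes homology region (CHR), which is bound by the MuvB complex together with repressors in resting cells and with MYBL2, the protein made from the host gene of the circle, in cycling cells. CCAAT boxes, bound by NF-Y, often lie upstream of the CHR.

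The promoter windows below ran from 120 bases before to 30 bases after the annotated start (RefSeq, GRCh38.p14, the same build as the hg38 of the submitters' processing notes). They are shown because the RNAs of these genes moved together, as described after them. Whether the promoters had a part in this was not tested. Capitals mark the CHR letters TTTGAA and the CCAAT box letters CCAAT on either strand, so that TTCAAA and ATTGG are the same motifs read from the other strand; in MKI67 a match of each shares letters. The first 6 are the members with the largest change in RNA among those whose window held TTTGAA, and the last pair, NCAPH and TOP2A, those with the largest change among the rest. NCAPG lies at chr4:17810859-17811008, plus strand; SPC25 at chr2:168890401-168890550, minus strand; NDC80 at chr18:2571437-2571586, plus strand; and MKI67 at chr10:128126394-128126543, minus strand. KIF11 lies at chr10:92593010-92593159, plus strand, NUF2 at chr1:163321834-163321983, plus strand, NCAPH at chr2:96335646-96335795, plus strand, and TOP2A at chr17:40417867-40418016, minus strand. Each is written 5′ to 3′ on the strand of the gene.
NCAPG: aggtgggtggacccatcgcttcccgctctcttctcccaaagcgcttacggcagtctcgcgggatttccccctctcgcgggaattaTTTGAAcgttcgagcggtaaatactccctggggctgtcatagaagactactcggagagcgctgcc
SPC25: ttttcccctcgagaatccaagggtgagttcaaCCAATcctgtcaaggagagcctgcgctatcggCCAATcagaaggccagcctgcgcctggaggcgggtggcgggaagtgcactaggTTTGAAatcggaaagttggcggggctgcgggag
NDC80: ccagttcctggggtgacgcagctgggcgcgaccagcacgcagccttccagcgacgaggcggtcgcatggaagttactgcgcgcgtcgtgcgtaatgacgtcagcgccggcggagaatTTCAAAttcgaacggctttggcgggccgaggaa
MKI67: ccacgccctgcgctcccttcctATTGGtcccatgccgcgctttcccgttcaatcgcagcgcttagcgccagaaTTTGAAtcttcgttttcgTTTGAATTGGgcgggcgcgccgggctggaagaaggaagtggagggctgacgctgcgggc
KIF11: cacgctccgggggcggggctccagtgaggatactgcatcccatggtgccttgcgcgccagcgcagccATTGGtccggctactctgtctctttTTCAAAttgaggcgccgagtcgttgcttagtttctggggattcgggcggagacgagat
NUF2: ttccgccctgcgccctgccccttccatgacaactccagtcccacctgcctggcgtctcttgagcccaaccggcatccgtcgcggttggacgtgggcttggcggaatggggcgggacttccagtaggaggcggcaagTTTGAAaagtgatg
NCAPH: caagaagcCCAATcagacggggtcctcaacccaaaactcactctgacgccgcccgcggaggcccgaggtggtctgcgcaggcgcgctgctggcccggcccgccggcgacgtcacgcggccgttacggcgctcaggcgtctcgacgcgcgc
TOP2A: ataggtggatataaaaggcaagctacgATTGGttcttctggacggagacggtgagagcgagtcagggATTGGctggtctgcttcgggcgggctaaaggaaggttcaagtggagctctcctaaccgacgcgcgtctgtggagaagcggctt

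Promoters were on hand for 38 of the 45 members, with 50 annotated starts; 7 members (AURKA, BIRC5, CENPM, RACGAP1, TPX2, TTK and UBE2C) had no entry. TTTGAA stood in the window of 26 of the 38 (68.4%), against 8.79% of all 27305 genes with a promoter and 6.52% of the 7268 protein-coding genes that were tested in RNA and matched by symbol. CCAAT stood in 25 of 38 (65.8%), against 26.5% and 31.4%. Both motifs were found in 16 of 38 (42.1%), against 2.32% and 1.97%. Of the 96 other mitosis genes described further below, 81 had a promoter on hand. TTTGAA stood in 25 of these 81 (30.9%), CCAAT in 45 (55.6%) and both in 21 (25.9%). A gene counted if any of its starts held the letters. Among members called higher in RNA, 15 of 20 held TTTGAA (75.0%), among those tested and not called 8 of 14 did (57.1%), and among those not tested 3 of 4 did. For CCAAT the order was the other way, with 12 of 20 (60.0%), 9 of 14 (64.3%) and 4 of 4. These differences between small groups were not tested. The 32 TTTGAA matches had a median position of -28 (first base of the match, counting the start as 1 and the base before it as -1), and 21 of them lay within 30 bases of the start. The 51 CCAAT matches had a median of -66 when pooled over genes, and 6 were within 30 bases. Matches were counted at each start, so a site in the windows of neighbouring starts, as in PTTG1 and CDC25C, entered more than once. The order of the motifs within a promoter differed between genes, and in ECT2 and ASPM the CCAAT matches lay downstream of TTTGAA. A match of letters is a description and not a bound site.

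**Figure D1:**
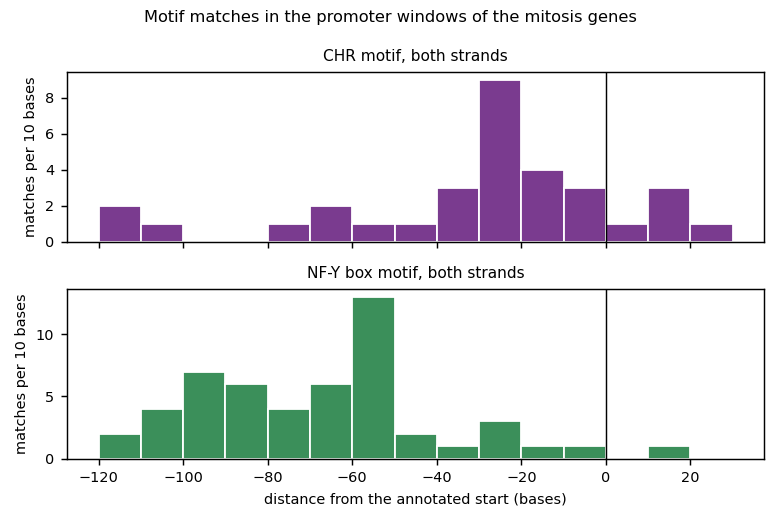
Positions of CHR and CCAAT (NF-Y) box motif matches in the windows of 50 annotated starts of 38 mitosis genes. The horizontal axis gives the distance from the annotated start in bases and the vertical axis the matches per 10 bases. Pooled over all starts, CHR matches had a median position of -28 and CCAAT box matches a median of -66. The order of the motifs within a promoter differed between genes.

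Input RNA of mitosis genes was higher with sh-circMYBL2. For each of the 45 genes, both sh-circMYBL2 libraries lay above both Sh-NC libraries. This held for all 40 members that passed the filter of the test described next, against 30% of the 12489 genes that passed it. The test was limma on log2(FPKM + 1), with p-values adjusted by the Benjamini-Hochberg method over all genes averaging at least 1 FPKM. In it 40 members were tested, 24 rose and none fell at an adjusted p under 0.05, against 4.92% of all genes called higher and 3.96% called lower. The median log2 change of the 40 was 0.64, with a range of 0.06 to 1.16, and that of all genes tested was -0.00. Of the 40, 7 had a Sh-NC mean under 1 FPKM and passed the filter through the sh-circMYBL2 libraries (CDK1, AURKB, BIRC5, CENPA, NUF2, KIF2C and KIF4A); 3 of these were among the 24.

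Summed over the 45 genes, input RNA came to 249 and 246 FPKM in the sh-circMYBL2 libraries, against 145 and 150.0 FPKM in the Sh-NC libraries. The members took 0.185% and 0.182% of protein-coding reads with sh-circMYBL2, against 0.111% and 0.114% with Sh-NC. The widest of these 95% Wilson intervals ran from 0.182% to 0.187%, and they cover counting error only. The ratio of group means ran from 1.07 to 3.49 over the 45 genes with a median of 1.86. It was at least 2 for 22 of them. Among tested genes, 19 of the 40 members reached that ratio, against 2.35% of all 12489. All 7 members with a Sh-NC mean under 1 FPKM were among the 19, and of the other 33 tested members 12 reached it and 21 were called higher.

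No RNA call, of members or of other genes, held when any single RNA library was removed, which left a group with a single library. With no minimum on the mean, 3 of 45 members were called (56 higher and 41 lower among 29835 genes). On reads recovered from the values, voom called 37 of 40 members higher and none lower, beside 13.5% higher and 12.5% lower of all genes. Scaling to the sum over protein-coding genes moved the median of all genes to 0.12 and the split of all calls to 1926 higher and 352 lower, against 615 and 494 as deposited, and the members' median to 0.96. This scaling also changed the size of the values to which 1 was added, and these effects were not separated.

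**Figure D2:**
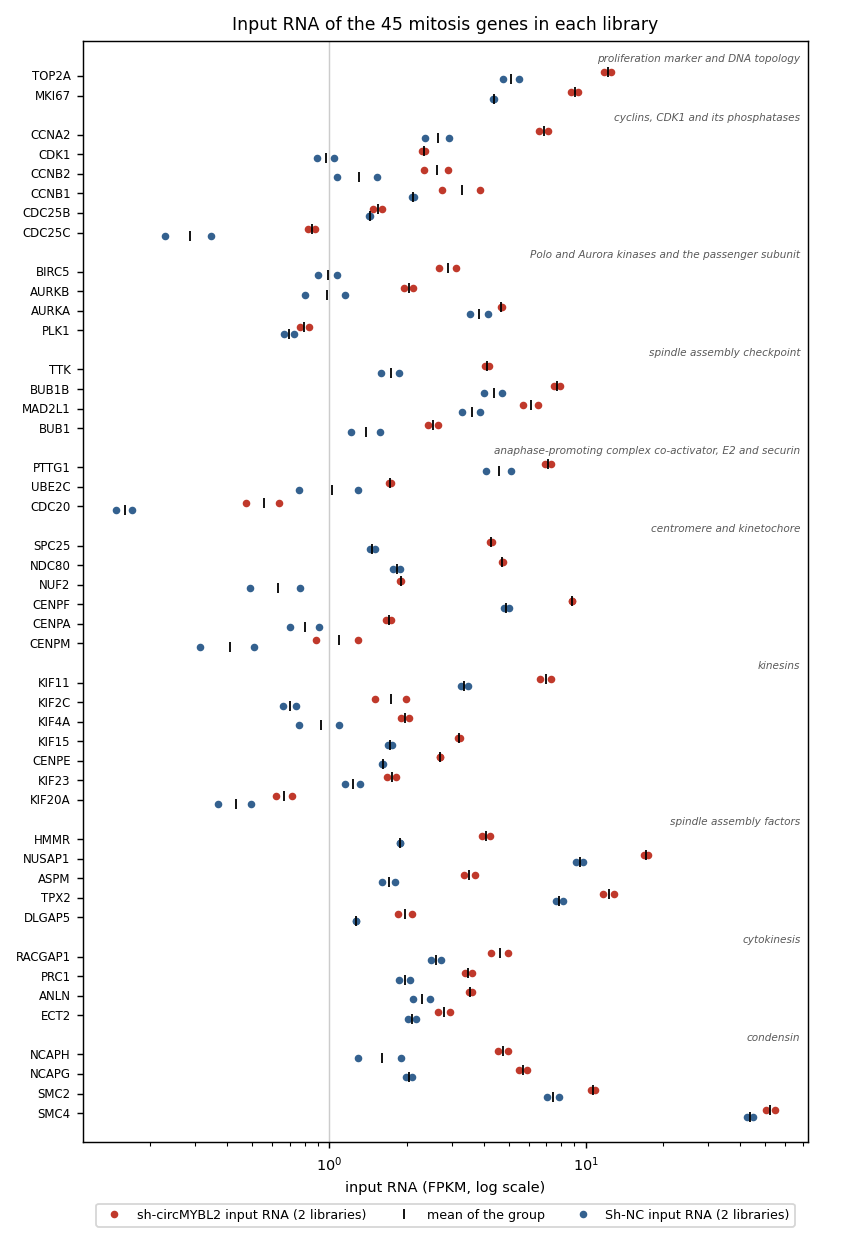
Input RNA of the 45 mitosis genes, ordered by role, in FPKM on a log scale. Each point is a library (2 of sh-circMYBL2 above, 2 of Sh-NC below) and each black bar the mean of a group. In every gene both sh-circMYBL2 points lie to the right of both Sh-NC points, by little for CDC25B and PLK1.

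MKI67, which encodes the Ki-67 protein of the chromosome surface, had 8.78 and 9.36 FPKM in sh-circMYBL2 libraries, against 4.39 and 4.35 FPKM in Sh-NC libraries. TOP2A, the topoisomerase that untangles sister DNA, had 12.6 and 11.8 FPKM with sh-circMYBL2, against 5.47 and 4.74 FPKM with Sh-NC. Both groups were tight and far apart in each gene. The log2 changes were 0.91 for MKI67 (SE 0.06, adjusted p = 0.0109) and 1.11 for TOP2A (SE 0.08, adjusted p = 0.0117) by limma.

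Among the cyclins, CDK1 and its phosphatases, 2 of 5 tested genes rose. CCNA2 (cyclin A2) had 6.56 and 7.11 FPKM with sh-circMYBL2, against 2.36 and 2.93 FPKM with Sh-NC, a log2 change of 1.11 (SE 0.10, limma adjusted p = 0.0176). CDK1, the kinase that drives entry into mitosis, had 2.36 and 2.29 FPKM with sh-circMYBL2, against 0.899 and 1.04 FPKM with Sh-NC, a change of 0.76 (SE 0.10, limma adjusted p = 0.0294). The B cyclins were less even between libraries. CCNB2 had 2.91 and 2.34 FPKM with sh-circMYBL2, against 1.07 and 1.54 FPKM with Sh-NC (0.65, limma adjusted p = 0.0797). CCNB1 had 3.86 and 2.75 FPKM with sh-circMYBL2, against 2.15 and 2.09 FPKM with Sh-NC (0.45, limma adjusted p = 0.144). CDC25B had the smallest change of the 40, with 1.60 and 1.48 FPKM with sh-circMYBL2 and 1.45 and 1.43 FPKM with Sh-NC (0.06, 95% interval -0.20 to 0.32). Its relative CDC25C stayed under the filter, at 0.827 and 0.881 FPKM (35 and 39 reads) with sh-circMYBL2 and 0.345 and 0.228 FPKM (14 and 10 reads) with Sh-NC.

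Of the Polo and Aurora kinases and survivin, 1 of 3 tested genes rose. BIRC5 encodes survivin, the subunit that places Aurora B on centromeres, and had 2.68 and 3.10 FPKM with sh-circMYBL2, against 0.906 and 1.07 FPKM with Sh-NC (0.97, SE 0.11, limma adjusted p = 0.0240). AURKB (Aurora B) had 1.96 and 2.12 FPKM with sh-circMYBL2, against 0.805 and 1.15 FPKM with Sh-NC (0.63, limma adjusted p = 0.0659). AURKA (Aurora A, the centrosome kinase) had 4.67 and 4.70 FPKM with sh-circMYBL2, against 4.16 and 3.54 FPKM with Sh-NC (0.23, limma adjusted p = 0.172). PLK1, the Polo kinase of mitotic entry and spindle assembly, was not tested and had the second-lowest ratio of the 45: 0.832 and 0.767 FPKM with sh-circMYBL2 and 0.663 and 0.730 FPKM with Sh-NC, a ratio of 1.15.

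In the spindle assembly checkpoint 3 of 4 genes rose. TTK, the kinase that starts checkpoint signalling, had 4.06 and 4.20 FPKM with sh-circMYBL2, against 1.87 and 1.59 FPKM with Sh-NC (0.91, SE 0.09, limma adjusted p = 0.0183). BUB1B (BubR1) had 7.53 and 7.92 FPKM with sh-circMYBL2, against 4.01 and 4.72 FPKM with Sh-NC (0.70, limma adjusted p = 0.0267). MAD2L1 (MAD2), which with BubR1 inhibits CDC20, had 5.69 and 6.49 FPKM with sh-circMYBL2, against 3.30 and 3.88 FPKM with Sh-NC (0.63, limma adjusted p = 0.0425). The kinase BUB1 was at 0.57 on the log2 scale (limma adjusted p = 0.0653). Of securin and the co-activator and E2 enzyme of the anaphase-promoting complex, 2 were tested and neither passed. PTTG1 (securin, which has near-identical gene copies that could share its reads) had 6.91 and 7.29 FPKM with sh-circMYBL2, against 5.12 and 4.07 FPKM with Sh-NC (0.54, limma adjusted p = 0.0619), and UBE2C, the E2 enzyme of the complex, 1.74 and 1.71 FPKM with sh-circMYBL2 against 0.760 and 1.30 FPKM with Sh-NC (0.44, limma adjusted p = 0.181). CDC20, the co-activator that the checkpoint blocks, had the highest ratio of all (3.49), but on 18 and 14 reads with sh-circMYBL2 and 4 and 5 reads with Sh-NC, too few to be tested.

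At the centromere and kinetochore 4 of 5 tested genes rose. NDC80, NUF2 and SPC25 are subunits of the NDC80 complex, which holds microtubules at the kinetochore. NDC80 had 4.70 and 4.74 FPKM with sh-circMYBL2, against 1.77 and 1.89 FPKM with Sh-NC (1.01, SE 0.07, limma adjusted p = 0.0117). SPC25 had 4.23 and 4.30 FPKM with sh-circMYBL2, against 1.51 and 1.43 FPKM with Sh-NC (1.09, SE 0.07, limma adjusted p = 0.0117). NUF2 had 1.89 and 1.90 FPKM with sh-circMYBL2, against 0.492 and 0.765 FPKM with Sh-NC (0.84, SE 0.13, limma adjusted p = 0.0423). SPC24, the remaining subunit and not a member, rose as well (0.95, limma adjusted p = 0.0256), and the ratios of means of the 4 subunits were 2.58 (NDC80), 3.02 (NUF2), 2.90 (SPC25) and 2.84 (SPC24). CENPF, a large kinetochore protein, rose by 0.73 (limma adjusted p = 0.0117). CENPA, the histone H3 variant that marks centromeres, had 1.74 and 1.67 FPKM with sh-circMYBL2, against 0.910 and 0.701 FPKM with Sh-NC (0.59, limma adjusted p = 0.0625). CENPM had 1.30 and 0.891 FPKM with sh-circMYBL2, against 0.507 and 0.313 FPKM with Sh-NC, and was not tested.

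**Figure D3:**
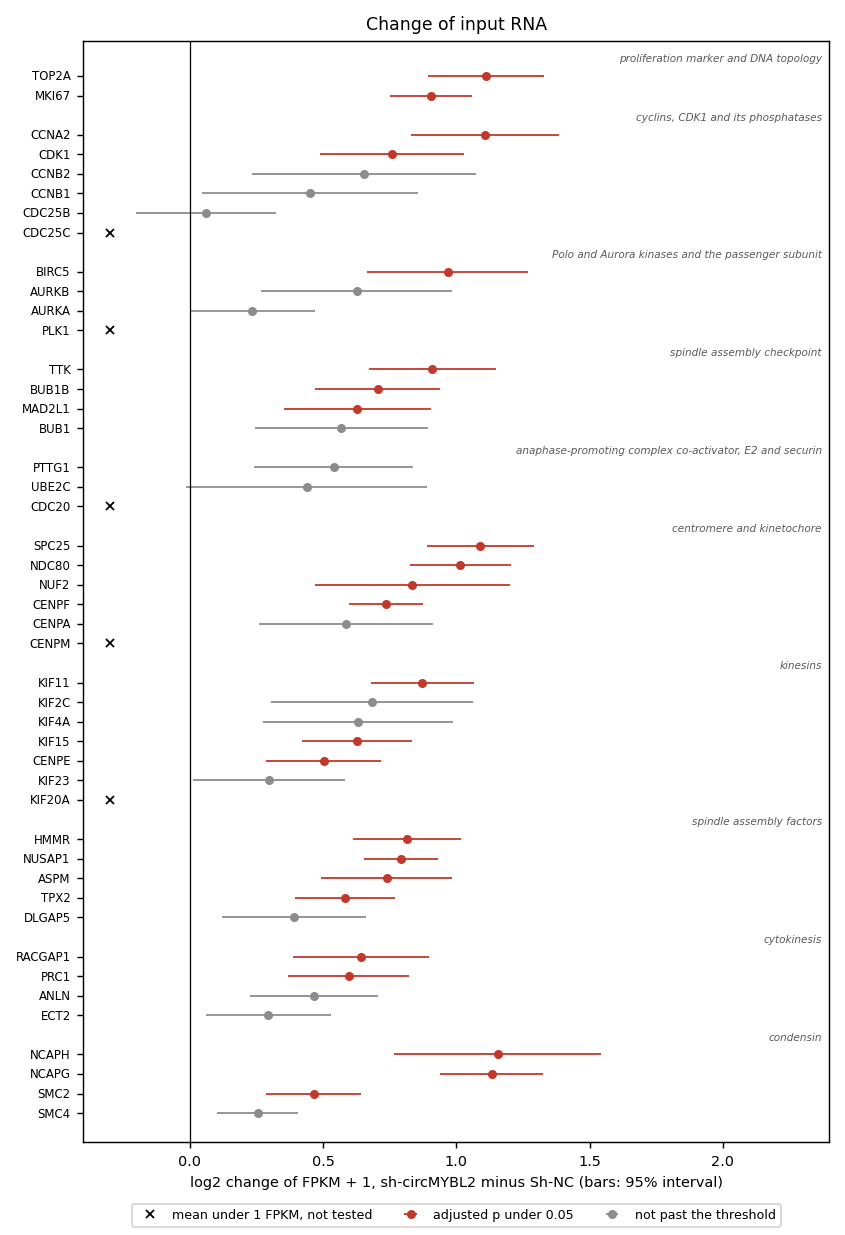
Log2 change of input RNA (FPKM + 1, sh-circMYBL2 minus Sh-NC) of the 45 mitosis genes by role, with 95% intervals from limma. Red points passed an adjusted p of 0.05, grey points did not, and crosses mark 5 genes under the filter, which have no value on this axis. All 40 tested genes lie above 0, from 0.06 (CDC25B) to 1.16 (NCAPH).

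Of 6 tested kinesins 3 rose. KIF11 (Eg5), which pushes the spindle poles apart, had 6.65 and 7.28 FPKM with sh-circMYBL2, against 3.25 and 3.46 FPKM with Sh-NC (0.87, SE 0.07, limma adjusted p = 0.0142). KIF15, which also helps to keep the spindle bipolar, rose by 0.63 and CENPE, the kinetochore motor that moves chromosomes to the equator, by 0.50 (limma adjusted p = 0.0264 and 0.0409). KIF2C (MCAK), which removes tubulin from microtubule ends, had 1.50 and 1.98 FPKM with sh-circMYBL2, against 0.660 and 0.743 FPKM with Sh-NC (0.68, limma adjusted p = 0.0628). KIF4A, a chromosome-bound kinesin, had 1.91 and 2.04 FPKM with sh-circMYBL2, against 0.763 and 1.09 FPKM with Sh-NC (0.63, limma adjusted p = 0.0641). KIF23, which forms centralspindlin with RACGAP1, was at 0.30 (limma adjusted p = 0.159). KIF20A, a kinesin of late mitosis, at 0.619 and 0.713 FPKM with sh-circMYBL2 and 0.494 and 0.369 FPKM with Sh-NC, was not tested.

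Of the 5 spindle assembly factors 4 rose. NUSAP1, which bundles microtubules near chromosomes, had 16.9 and 17.5 FPKM with sh-circMYBL2, against 9.18 and 9.79 FPKM with Sh-NC (0.79, SE 0.05, limma adjusted p = 0.0112). HMMR had 3.93 and 4.23 FPKM with sh-circMYBL2, against 1.89 FPKM in both Sh-NC libraries (0.81, limma adjusted p = 0.0173). ASPM, a spindle pole protein, had 3.35 and 3.68 FPKM with sh-circMYBL2, against 1.81 and 1.60 FPKM with Sh-NC (0.74, limma adjusted p = 0.0269). TPX2, the activator of Aurora A, rose by 0.58 (limma adjusted p = 0.0257), and DLGAP5 (HURP) was at 0.39 (limma adjusted p = 0.0912).

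In cytokinesis 2 of 4 genes rose. RACGAP1 forms centralspindlin with KIF23, and had 4.99 and 4.28 FPKM with sh-circMYBL2, against 2.71 and 2.49 FPKM with Sh-NC (0.64, SE 0.09, limma adjusted p = 0.0359). PRC1, which cross-links microtubules of the central spindle, had 3.60 and 3.37 FPKM with sh-circMYBL2, against 2.07 and 1.86 FPKM with Sh-NC (0.60, limma adjusted p = 0.0333). ANLN (anillin, a scaffold of the contractile ring) had 3.58 and 3.50 FPKM with sh-circMYBL2, against 2.48 and 2.12 FPKM with Sh-NC (0.47, limma adjusted p = 0.0550). ECT2, the exchange factor that activates RhoA at the equator, was at 0.29 (limma adjusted p = 0.118).

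Of the 4 condensin subunits 3 rose. NCAPH, the kleisin of condensin I, had 4.53 and 4.98 FPKM with sh-circMYBL2, against 1.90 and 1.29 FPKM with Sh-NC, which was the largest log2 change of the 40 (1.16, SE 0.14, limma adjusted p = 0.0270). NCAPG, another subunit of condensin I, had 5.88 and 5.49 FPKM with sh-circMYBL2, against 2.11 and 1.99 FPKM with Sh-NC (1.13, SE 0.07, limma adjusted p = 0.0109). SMC2 and SMC4 are the ATPase subunits shared by condensins I and II. SMC2 had 10.5 and 10.8 FPKM with sh-circMYBL2, against 7.08 and 7.86 FPKM with Sh-NC (0.46, limma adjusted p = 0.0336). SMC4, by far the most abundant member, had 54.5 and 50.3 FPKM with sh-circMYBL2, against 42.6 and 44.9 FPKM with Sh-NC (0.26, limma adjusted p = 0.0706). The 95% intervals of NCAPG (0.94 to 1.33) and NCAPH (0.77 to 1.54) did not overlap those of SMC2 (0.29 to 0.64) and SMC4 (0.10 to 0.41); the differences between subunits themselves were not tested.

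A list of 96 other mitosis genes, which also covers the anaphase-promoting complex, cohesin and further kinetochore proteins, was measured beside the members. Of 87 tested, 31 rose and 2 fell, against 4.92% of all 12489 genes called higher and 3.96% called lower. How many of the 87 passed the filter through the sh-circMYBL2 libraries was not counted. The median log2 change of the 87 was 0.28, beside 0.64 for the 40 members. The difference between the lists was not tested. Those with the largest changes were CDCA5 (sororin, which protects cohesin), NCAPG2 of condensin II, ZWINT and SKA3 of the kinetochore, the CDK1 phosphatase CDC25A, SPC24, CEP55 of the abscission machinery and the cohesin acetyltransferase ESCO2. CDCA5 had 4.08 ± 0.733 FPKM with sh-circMYBL2 and 1.07 ± 0.109 FPKM with Sh-NC (SD, n = 2 each), a log2 change of 1.29 with a limma adjusted p of 0.0209. NCAPG2 had 5.35 ± 0.512 FPKM with sh-circMYBL2 and 1.80 ± 0.0856 FPKM with Sh-NC. ZWINT had 13.2 ± 0.919 FPKM with sh-circMYBL2 and 5.74 ± 0.432 FPKM with Sh-NC, and CDC25A 3.26 ± 0.0917 FPKM with sh-circMYBL2 and 1.11 ± 0.0994 FPKM with Sh-NC. The log2 changes of SKA3, CEP55 and ESCO2 were 1.07, 0.94 and 0.91 (limma adjusted p = 0.0117, 0.0123 and 0.0216). By group, 11 of 27 kinetochore genes, 5 of 13 cohesin genes and all 3 tested condensin genes rose. The 17 genes of the anaphase-promoting complex and its regulators had a median of 0.02; FBXO5 (EMI1, its inhibitor) rose, and ANAPC7, a subunit, fell to 8.07 ± 0.331 FPKM with sh-circMYBL2, against 10.3 ± 0.428 FPKM with Sh-NC (-0.32, limma adjusted p = 0.0493). The other gene that fell was CKAP2, which encodes a microtubule-binding protein and had 47.5 ± 0.865 FPKM with sh-circMYBL2 and 53.9 ± 0.304 FPKM with Sh-NC (-0.18, limma adjusted p = 0.0493). Neither passed after scaling to the protein-coding sum (ANAPC7 -0.22, CKAP2 -0.05). FOXM1, a transcription factor of G2 and M genes, averaged under 1 FPKM, with 1.32 and 1.18 FPKM with sh-circMYBL2 and 0.629 and 0.312 FPKM with Sh-NC.

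The share of footprints on the same genes had no direction that held without 2 of them, CENPA and RACGAP1. All 45 members took 0.687% and 0.669% of protein-coding footprint reads in sh-circMYBL2 libraries a and b, against 0.715% and 0.725% in Sh-NC libraries 1 and 2. The 95% Wilson intervals were 0.643% to 0.734% and 0.648% to 0.690% for sh-circMYBL2, and 0.631% to 0.811% and 0.671% to 0.783% for Sh-NC, and they overlap between the hairpins. CENPA and RACGAP1 held 8.10% and 3.94% of the members' reads with sh-circMYBL2, against 30.7% and 16.5% with Sh-NC. Without this pair, left out after its values were seen, the share was 0.631% and 0.642% with sh-circMYBL2, against 0.495% and 0.606% with Sh-NC, so that both sh-circMYBL2 libraries were higher. The interval of Sh-NC library 2 (0.557% to 0.659%) then still overlapped those of sh-circMYBL2 libraries a (0.589% to 0.677%) and b (0.622% to 0.663%), and that of Sh-NC library 1 (0.426% to 0.576%) did not. The shares over all 45 rested on 864 and 3905 reads with sh-circMYBL2 and on 241 and 643 reads with Sh-NC. In sh-circMYBL2 libraries no member was without a read, while 13 members had none in Sh-NC library 1 and 3 had none in library 2. Of 44 members tested by limma on log2(RPKM + 1), none was called in either direction, and 0 of 9431 genes were (0% each way). An unadjusted limma p under 0.05 was found for 4 of the 44 members, beside 1212 of all 9431 genes (1047 higher and 165 lower). Of these members NUSAP1 and KIF15 were higher and CENPA and RACGAP1 lower. By voom on recovered reads CENPA and RACGAP1 were called lower and none higher, beside 0.509% and 0.0636% of all genes. On simulated footprint libraries of these depths limma called 0% of 100 genes given a 4-fold change among 9506 genes, with 21 false calls. The spread between simulated libraries was set and not estimated from these data, so this rate may not hold for them.

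The median footprint change of the 44 members was 0.67 and that of all genes tested was 0.56. Over the 30 members with a read in every footprint library the median was 0.20, and over all 4441 such genes it was -0.01. In input RNA the 27 of those 30 that were tested had a median of 0.70. Without Sh-NC library 1 the median of the 44 was 0.28.

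**Figure D4:**
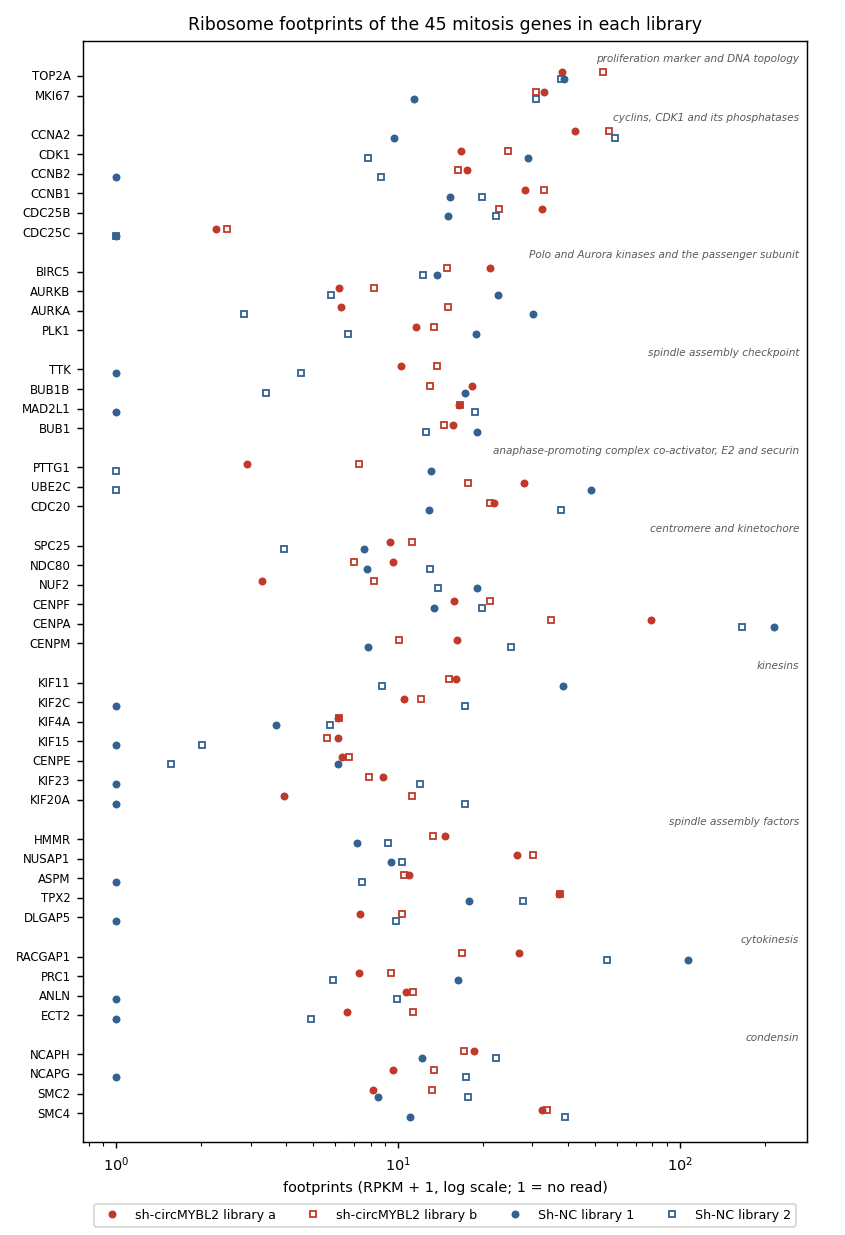
Footprints of the 45 mitosis genes in each library, as RPKM + 1 on a log scale, so that a gene without a read stands at 1. Red marks are sh-circMYBL2 libraries a and b, blue marks Sh-NC libraries 1 and 2. Both sh-circMYBL2 marks lie right of both Sh-NC marks for 17 genes and left of them for 3 (CENPA, NUF2 and RACGAP1).

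Among the 10 members with the most footprint reads, most had groups that overlapped or nearly so. MKI67 had 32.0 and 29.9 RPKM (106 and 427 reads) with sh-circMYBL2, against 10.4 and 29.9 RPKM (11 and 71 reads) with Sh-NC. TOP2A had 37.2 and 52.3 RPKM (62 and 375 reads) with sh-circMYBL2, against 37.8 and 36.8 RPKM (20 and 44 reads) with Sh-NC. SMC4 had 31.5 and 32.7 RPKM (69 and 308 reads) with sh-circMYBL2, against 10.1 and 38.2 RPKM (7 and 60 reads) with Sh-NC. In MKI67 and SMC4 the low value was Sh-NC library 1, with sh-circMYBL2 library b level with Sh-NC library 2 in MKI67, and in TOP2A the high value was sh-circMYBL2 library b. Their log2 changes of footprints were 0.76 (SE 0.64), 0.24 (SE 0.40) and 0.67 (SE 0.75), none past the threshold (limma adjusted p = 0.646, 0.819 and 0.731). Without Sh-NC library 1 the change was 0.05 for MKI67 and -0.24 for SMC4, and without Sh-NC library 2 it was 1.48 for MKI67 and 1.58 for SMC4.

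CENPF had 14.9 and 20.2 RPKM (45 and 263 reads) with sh-circMYBL2, against 12.5 and 18.9 RPKM (12 and 41 reads) with Sh-NC. CCNA2 had 41.4 and 55.2 RPKM (30 and 172 reads) with sh-circMYBL2, against 8.69 and 57.8 RPKM (2 and 30 reads) with Sh-NC. In both genes the ranges of the hairpins overlapped, and the value of CCNA2 in Sh-NC library 1 rested on 2 reads. TPX2 had 36.4 and 36.6 RPKM (34 and 147 reads) with sh-circMYBL2, against 16.9 and 26.9 RPKM (5 and 18 reads) with Sh-NC. CDC25B had 31.3 and 21.9 RPKM (35 and 105 reads) with sh-circMYBL2, against 14.1 and 21.2 RPKM (5 and 17 reads) with Sh-NC. ASPM had 9.93 and 9.49 RPKM (28 and 115 reads) with sh-circMYBL2, against 0 and 6.43 RPKM (0 and 13 reads) with Sh-NC. In TPX2, CDC25B and ASPM both sh-circMYBL2 libraries were above both Sh-NC libraries, by a small margin in CDC25B. Groups were apart in this direction for 17 of 45 members (16 of the 44 tested) and for 30.7% of all genes tested, and in the other direction for 3 members and 10.9% of all genes.

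In CENPA and RACGAP1 RNA was higher in both sh-circMYBL2 libraries and footprints were lower in both. CENPA (chromosome 2, 26786056 to 26794589) had 77.9 and 34.0 RPKM of footprints (40 and 75 reads) with sh-circMYBL2, against 215 and 166 RPKM (35 and 61 reads) with Sh-NC. RACGAP1 (chromosome 12, 49989162 to 50033440) had 25.8 and 15.8 RPKM (30 and 79 reads) with sh-circMYBL2, against 105.7 and 54.0 RPKM (39 and 45 reads) with Sh-NC. No other RefSeq gene overlaps either locus. The scaled read ratio of sh-circMYBL2 to Sh-NC was 0.234 for CENPA (95% counting interval 0.177 to 0.310) and 0.253 for RACGAP1 (0.189 to 0.341), intervals that leave out the spread between replicates. The log2 footprint change was -1.85 for both (SE 0.54 and 0.55, limma adjusted p = 0.323 each), and by voom it was -2.00 for CENPA and -1.92 for RACGAP1 (adjusted p = 0.0285 and 0.0465). NUF2 was the remaining member with lower footprints in both sh-circMYBL2 libraries, at 2.30 and 7.21 RPKM (2 and 27 reads), against 18.1 and 12.8 RPKM (5 and 8 reads) with Sh-NC (-1.64, limma adjusted p = 0.484, and -0.98 without sh-circMYBL2 library a). The values are totals of a gene and do not show where on it the reads lie.

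NUSAP1, chosen after its values were seen, went the other way, with 25.5 and 29.1 RPKM (19 and 93 reads) with sh-circMYBL2, against 8.46 and 9.37 RPKM (2 and 5 reads) with Sh-NC. Its footprint change was 1.51 (SE 0.45, limma adjusted p = 0.323), and its scaled read ratio was 3.12 with a 95% counting interval of 1.47 to 7.95. NUSAP1 RNA rose too, by 0.79.

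Translational efficiency (TE) is the footprint change beyond the RNA change, tested as the interaction of hairpin and assay over all 8 libraries. Of 40 members tested none was called, against 5.05% of all 8260 genes called higher and 0.266% called lower. An unadjusted limma p under 0.05 was found for 6 of the 40 members, beside 1618 of all 8260 genes (1292 higher and 326 lower). Of these members KIF15 was higher and RACGAP1, CENPA, NUF2, NDC80 and TOP2A lower. KIF15 rested on 0 and 1 footprint reads with Sh-NC and on 7 and 27 with sh-circMYBL2. The median TE change of the members was -0.05, and that of all genes 0.57. Over genes with a read in every library the medians were -0.40 for 30 members and 0.00 for all 4339 such genes. RACGAP1 had the lowest value at -2.49 (95% interval -3.91 to -1.08, limma adjusted p = 0.0673), then NUF2 at -2.48 (-4.19 to -0.76, limma adjusted p = 0.113) and CENPA at -2.44 (-3.90 to -0.98, limma adjusted p = 0.0776). By voom RACGAP1 was called lower (adjusted p = 0.0453) and no other member was called in either direction, CENPA having an adjusted p of 0.0528, beside 1.63% of all genes called higher and 0.484% called lower. The count of members called depended on the footprint library left out: without Sh-NC library 1 it was 5 higher and 10 lower (25.7% and 11.1% of all genes), and without Sh-NC library 2 it was 16 higher and 11 lower (44.5% and 14.8% of all genes). Without sh-circMYBL2 library a it was 0 higher and 1 lower (11.5% and 1.50% of all genes), and without library b 0 higher and 2 lower (10.8% and 1.39%). Each gene had 1 variance over both assays in this fit; with the footprint libraries alone giving the spread, RACGAP1 and CENPA had adjusted p = 0.280 and 0.283 by limma.

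**Figure D5:**
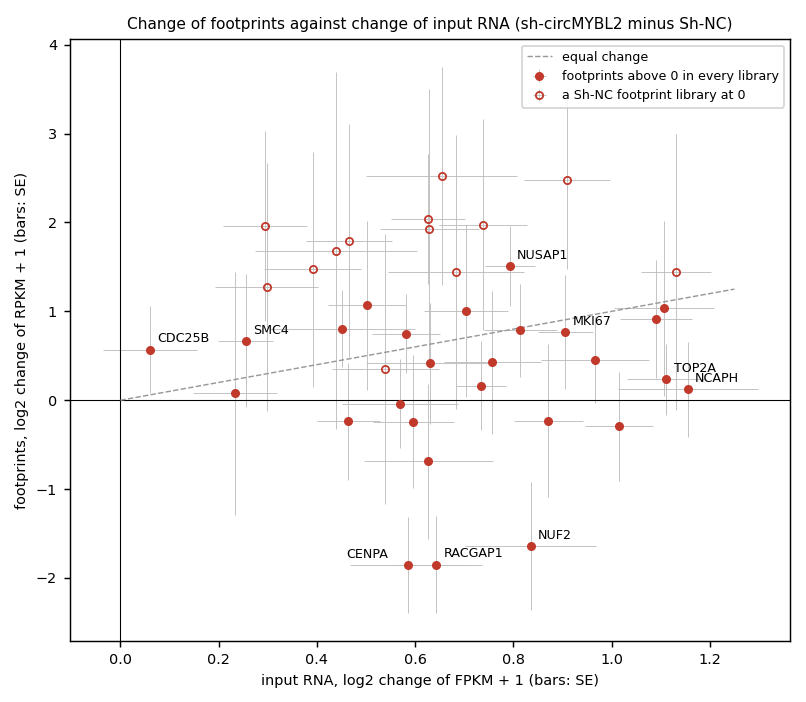
Log2 change of footprints against log2 change of input RNA (sh-circMYBL2 minus Sh-NC, value + 1) for the 40 mitosis genes tested in both, with SE bars. Open points had no read in a Sh-NC footprint library, and the dashed line marks equal change. All points lie right of 0, 31 above and 9 below 0 in footprints, and CENPA, RACGAP1 and NUF2 lie lowest.

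Relative to their RNA, most of the 40 tested members ranked high in footprints under both hairpins. The ratio of RPKM to FPKM was ranked among the 8260 genes of the TE test, since the tables were scaled separately and the ratio has no absolute meaning. The 40 tested members had a median percentile of 89.8 with sh-circMYBL2 and 90.8 with Sh-NC. Of them, 19 with sh-circMYBL2 and 23 with Sh-NC were above the 90th percentile. CENPA stood at percentile 98.9 with sh-circMYBL2 and 99.4 with Sh-NC, and SMC4, whose RNA is high, at percentile 34.3 with sh-circMYBL2 and 45.9 with Sh-NC. By RNA level alone CENPA was at percentile 6.91 and SMC4 at 94.9 of the genes tested in RNA. A gene with low RNA needs few footprints to rank high, and the part of this was not tested. Ranks differed among the further mitosis genes, such as 16.3 for SMC3 and 83.5 for FBXO5 with sh-circMYBL2. In bulk samples a change in the share of cells in a phase and a change per cell cannot be told apart, for RNA and footprints alike.

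Of the 45 loci, 24 overlap another RefSeq gene, among them CCNA2 with EXOSC9, SPC25 with NOSTRIN, NCAPG with LCORL, ANLN with MATCAP2, KIF20A with CDC23, and SMC4 with MIR15B and MIR16-2. The strand setting of the counting is not given in the sources used here, so reads of such pairs may not be separated.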

How the data were processed

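Ribosome footprints and input RNA were measured in 8 libraries of MOLM-13 cells, and groups were taken from the sample titles. The deposited footprint table holds RPKM values and the deposited input RNA table FPKM values, both made by the authors. Reads are divided in them by gene length and by a scaling total per library. That total differed from the reads on genes, most in the footprints. It was 185632 against 300336 reads in Sh-NC library 2, and 1113399 against 714949 reads in sh-circMYBL2 library b. How it was set was not given in the sources used here. Per the submitters' processing notes cutadapt, Bowtie, HISAT2, featureCounts and DESeq2 were used with hg38; the role and version of each tool were not given in the sources used here.

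Each table was fitted with limma 3.58.1 in R 4.3.3 (two-sided, with a trend in the prior variance) after a log2(value + 1) transform, keeping genes that averaged 1 or more over its 4 libraries; TE used genes kept in both. This scale understates changes of low genes. With 2 libraries against 2, the smallest p of an exact permutation test is 0.333. On simulated RNA libraries of 12502 genes the fit called 51% of the 2-fold changes and 81% of the 4-fold ones, with 17 false calls. For footprints it called 0% and 0%, with 21 false calls, and for TE 0% and 6%, with 27 false calls. The spread between simulated libraries was set and not estimated from these data. Values times gene length were whole multiples of a step per library, known from microRNA hairpins (98.6% to 99.4% of microRNA values whole within 0.02 reads), which gave the reads behind each value. In simulation 87.6% of 2741 genes were exact in every library. Recovered reads entered depths, shares, counting intervals and voom only.

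The members and lists were chosen with earlier results of these data known. Values in every library were given for up to 3 members of each role with the largest RNA change, and for the 10 members with the most footprint reads. Of the further list, the 8 called genes with the largest change and any that went against the rest were named, some with group means; CCNB1, CDC25B, CDC25C, PLK1, CDC20, CENPA, CENPM, KIF20A, SMC4, NUF2 and NUSAP1 footprints and FOXM1 were added after values were seen where the rule did not name them.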

Additional observations from a re-analysis of the deposited data

How the results depend on the processing

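Of the RNA results, the 24 members called higher became 10 with a minimum mean of 5 (10 tested), 3 with no minimum and 37 by voom. No call held with any 1 library left out. A replicate block gave 0 members and 0 genes of the table. With the block 36 members had an unadjusted limma p under 0.05, beside 3373 of all 12489 genes. The block has only the numbers in the titles behind it: same-numbered RNA libraries had deviations correlated at 0.027, and sh-circMYBL2 footprint columns carry no number. No member was called lower under any of these settings. The RNA median of members, 0.64, was 0.85 and 0.31 with pseudocounts of 0.1 and 5, 0.72 with a minimum mean of 5, 0.96 rescaled to the protein-coding sum (all genes 0.12), 0.88 by voom, and 0.65 to 0.72 with a library left out. Rescaled values differ in size from those deposited, so the pseudocount of 1 weighs differently on them. For the further mitosis list, 31 higher became 1 with no minimum, 18 with a minimum mean of 5, 48 rescaled, 48 by voom and 0 with a library left out or with the block. The 2 lower became 1 with a pseudocount of 0.1 or quantile normalization, 0 with no minimum or rescaled, 5 by voom and 0 with a library left out or with the block. Its median was 0.31, 0.16, 0.14, 0.44 and 0.31 with pseudocounts of 0.1 and 5, a minimum mean of 5, rescaled and by voom, and 0.24 to 0.29 with a library left out.

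The footprint median of members, 0.67, was 0.48 with a pseudocount of 5, 0.51 after quantile normalization, 0.20 over genes above 0 in every library (an alternative chosen after seeing the data) and 0.28 to 0.72 with a library left out. Members lower in footprints numbered 2 by voom. The members' share of footprint reads, sh-circMYBL2 minus Sh-NC, was -0.0422 percentage points, -0.0515 to -0.0329 with a library left out, and 0.0863 without CENPA and RACGAP1 (both chosen after seeing the data). In TE, members lower numbered 1 with a pseudocount of 0.1, 2 rescaled and 1 by voom; with a library left out 0 to 16 were higher and 0 to 11 lower, in fits that called up to 44.5% of all genes higher and 14.8% lower. The TE median, -0.05, turned to 0.037 and 0.11 with pseudocounts of 0.1 and 5, and was -0.17 with a minimum mean of 5, -0.20 after quantile normalization, -0.15 rescaled, -0.42 by voom, -0.40 over genes above 0 in every library, and -0.32 to 0.15 with a library left out.

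Of single genes, footprint changes turned without Sh-NC footprint library 1 for SMC4 (-0.24), CENPF (-0.12) and CCNA2 (-0.27), and without sh-circMYBL2 library b for TOP2A (-0.0035) and CENPF (-0.045). The highest values with a library left out were 1.58 for SMC4, 0.44 for CENPF, 2.33 for CCNA2 and 0.48 for TOP2A. With a library left out footprint changes ranged over 0.049 to 1.48 for MKI67, 0.43 to 1.07 for TPX2, 0.29 to 0.85 for CDC25B, 0.53 to 3.42 for ASPM and -2.30 to -0.98 for NUF2. TE changes turned with a pseudocount of 5 for MKI67 (0.046) and CCNA2 (0.22), rescaled for TPX2 (-0.047), without Sh-NC RNA library 1 for CCNA2 (0.038), without Sh-NC footprint library 1 for SMC4 (-0.50), TPX2 (-0.15) and ASPM (-0.21), without Sh-NC footprint library 2 for MKI67 (0.58) and CCNA2 (1.23), and without sh-circMYBL2 library a for CCNA2 (0.13). With a library left out TE ranged over -0.86 to 0.58 for MKI67, -1.37 to 1.23 for CCNA2, -0.50 to 1.33 for SMC4, -0.15 to 0.49 for TPX2 and -0.21 to 2.68 for ASPM. The cause was not tested. No RNA change of the 40 tested members or the 10 named further genes turned under any setting that gave a value. Footprint depth limits all footprint and TE results: 17 of 45 members had fewer than 10 footprint reads in Sh-NC in all.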
